A study of Mus musculus with 22 samples.

Results

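Levels of 40 genes of cell division, called members here, were followed in RNA-seq libraries of whole mouse spinal cord. They were chosen as a fixed list of names, from the helicase and cyclin genes of DNA replication to the kinases, kinetochore proteins and motors of mitosis. The rule used no measured value, but the list was drawn up with earlier results of these data known. All 40 were found by Ensembl identifier among the 21995 genes of the tables. The study asked how the spinal cord changes with aging and in a mouse model of amyotrophic lateral sclerosis (ALS). For aging, 8 young wild-type male C57BL/6 mice of 3-4 months were compared with 8 old wild-type male C57BL/6 mice of 18-24 months, in libraries made with the KAPA HyperPrep kit. For ALS, 3 SOD1-G93A mice were compared with 3 wild-type control mice, all C57BL/6 mice of 5-6 months with 2 females and 1 male in each group, in libraries made with the Illumina TruSeq kit. The SOD1-G93A line is a model of familial ALS in which a mutant human SOD1 gene, present at high copy number, is expressed throughout the body, and the mice were sampled when motor symptoms were present. Each library came from 1 mouse, and kit and experiment coincided, so every comparison stayed within 1 experiment.

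Cells that divide switch on these genes in waves. In G1, cyclin D1 with CDK4 or CDK6 inactivates the RB protein, and E2F transcription factors then turn on the genes of DNA replication, among them the MCM helicase subunits, the PCNA clamp and the enzymes that make deoxynucleotides. Later, cyclins A and B with CDK1, together with FOXM1 and the Aurora and polo-like kinases, drive mitosis until the anaphase-promoting complex destroys the cyclins. Neurons of the adult cord do not divide, and most of its glia are resting, while oligodendrocyte precursors divide slowly and microglia can divide after injury. In bulk tissue, more cells in cycle and more RNA per cell cannot be told apart.

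Promoter sequences are shown for members that behaved differently below, since 2 short elements are known to mark the waves. E2F sites are typical of replication genes, and the cell cycle genes homology region (CHR), often beside CCAAT boxes, of mitotic genes. Of the 40 members, 33 had a promoter window in the RefSeq table of GRCm38.p6, spanning 250 bases before to 50 bases after the start of the transcript. Capitals mark each match of the CHR (TTTGAA), the CCAAT box (CCAAT) or an E2F core, all searched on both strands. For the E2F core the letters TTCGCGC were searched, besides them the letters TTCCCGC, besides them the letters TTGGCGC, and besides them the letters TTGCCGC, and these matches may overlap each other. Ccnb2 and Top2a stand for mitotic genes that rose in SOD1-G93A mice, Mcm5 for a replication gene that rose there, and Racgap1 for a mitotic gene that did not. The windows lie at chr9:70421505-70421804 on the minus strand for Ccnb2, chr11:99024140-99024439 on the minus strand for Top2a, chr8:75109259-75109558 on the plus strand for Mcm5 and chr15:99651607-99651906 on the minus strand for Racgap1, and each is written 5′ to 3′ along its gene.
Ccnb2: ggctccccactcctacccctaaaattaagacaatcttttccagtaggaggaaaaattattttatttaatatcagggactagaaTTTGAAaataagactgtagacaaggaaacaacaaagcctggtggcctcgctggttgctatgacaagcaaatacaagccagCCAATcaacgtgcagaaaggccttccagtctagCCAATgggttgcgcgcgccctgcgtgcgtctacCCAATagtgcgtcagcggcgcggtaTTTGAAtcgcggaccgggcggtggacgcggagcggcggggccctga
Top2a: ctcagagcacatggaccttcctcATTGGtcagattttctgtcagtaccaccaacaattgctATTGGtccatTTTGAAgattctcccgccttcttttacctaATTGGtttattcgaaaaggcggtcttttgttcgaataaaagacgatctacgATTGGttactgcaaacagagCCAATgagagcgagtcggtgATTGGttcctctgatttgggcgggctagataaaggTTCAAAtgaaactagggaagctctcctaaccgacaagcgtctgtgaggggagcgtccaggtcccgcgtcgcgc
Mcm5: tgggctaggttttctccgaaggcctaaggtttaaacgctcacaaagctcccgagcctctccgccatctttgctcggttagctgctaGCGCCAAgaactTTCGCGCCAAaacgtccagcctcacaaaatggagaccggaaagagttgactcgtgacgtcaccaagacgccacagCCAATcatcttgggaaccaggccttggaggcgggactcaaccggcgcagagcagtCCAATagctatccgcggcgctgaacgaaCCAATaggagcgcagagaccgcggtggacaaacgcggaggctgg
Racgap1: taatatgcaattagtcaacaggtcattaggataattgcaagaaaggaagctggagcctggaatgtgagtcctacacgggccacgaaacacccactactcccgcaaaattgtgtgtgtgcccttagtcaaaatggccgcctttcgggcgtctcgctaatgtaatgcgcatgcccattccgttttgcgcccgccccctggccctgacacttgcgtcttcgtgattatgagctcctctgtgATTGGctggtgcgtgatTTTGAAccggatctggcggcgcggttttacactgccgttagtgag
The Ccnb2 window held 2 CHR matches and 3 CCAAT boxes, and the Top2a window 2 CHR matches and 6 CCAAT boxes. The Mcm5 window held 3 E2F matches, 3 CCAAT boxes and no CHR, and the Racgap1 window 1 CHR and 1 CCAAT box. Over the members, a CHR was present in 17 of 33 windows (51.5%, against 17.9% of all 32851 windows of the table), a CCAAT box in 27 (81.8% against 37.4%) and an E2F core in 10 (30.3% against 9.57%). The CHR was in 1 of 11 windows of the G1/S and replication members, 6 of 8 of the G2/M regulators, 5 of 8 of the chromosome and kinetochore members and 5 of 6 of the spindle members, while the E2F core was in 6, 2, 1 and 1 of them. Such matches are letters in a window and no measure of binding.

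Library depth was 5078092 to 9358055 counts in young, 5664869 to 9145600 in old, 10693060 to 13219797 in control and 9675610 to 11872431 in SOD1-G93A mice. Levels are given as counts scaled by library size to CPM, where 3 counts, taken as the floor of what a library can show, came to at most 0.582 CPM in the aging libraries and at most 0.302 CPM in the ALS libraries. Marker genes of resident cells matched the labelled tissue. The summed level of 6 neuronal markers was 5319 CPM in young and 6118 CPM in control mice, and that of 6 oligodendrocyte markers 26229 and 28261 CPM. The summed level of 10 microglial markers was 341 to 382 CPM in young and 539 to 903 CPM in old mice (9 of 10 genes rose), and 352 to 424 CPM in control and 1432 to 2561 CPM in SOD1-G93A mice (8 of 10 rose). Markers of T cells (7 genes), B cells (4) and neutrophils (5) were below the filter on low counts in both comparisons. Their summed levels per library were at most 4.26 CPM, and Ly6g, a neutrophil marker, was at 0 in all libraries.

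In every group Pcna and Ccnd1 were the highest members per transcript length. On the FPKM scale (fragments scaled by length and library size), Pcna was at 29.0 ± 3.84 (SD, n = 8) in young and 28.4 ± 1.60 (n = 3) in control mice, and Ccnd1 at 12.998 ± 0.853 and 12.5 ± 1.55. Mcm7 and Racgap1 followed, at 7.55 ± 1.06 and 6.46 ± 0.447 in young mice and 7.90 ± 0.911 and 6.68 ± 0.173 in control mice. At the other end, Mki67 was the lowest member in young mice, at 0.0438 ± 0.0311. Of the 27 members outside the G1/S group, 18 were below the filter on low counts in the aging libraries.

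Most of the members that could be tested rose in SOD1-G93A mice. In edgeR's quasi-likelihood test, adjusted by Benjamini-Hochberg over 14386 genes, 29 of the 38 members that passed the filter on low counts rose, where 18.4% of all genes tested rose. None of the 38 fell (15.5% of all genes tested fell). At an unadjusted p under 0.05, 32 members were higher (23.4% of all genes tested) and 1, E2f1, was lower (21.7%). A log2 fold change above 1 as well as the adjusted p was reached by 25 members, against 8.5% of all genes tested. Of the 38, 36 had a log2 fold change above 0, against 50.3% of all genes tested. Their median log2 fold change was 1.21, against 0.00 over all genes tested.

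The filter matters for these counts, because 12 of the 38 tested members had a control library under its minimum and passed through their SOD1-G93A levels. They were Uhrf1, Cdk1, Ccnb1, Ccnb2, Ube2c, Top2a, Aurkb, Cdca8, Cenpf, Kif20a, Kif23 and Hmmr. The other counts above, the median and the counts by role below include them too. Those values therefore lean towards members that are high in SOD1-G93A mice. Without the filter, all 40 members could be tested, and 31 rose and none fell, where 14.4% of 18161 genes rose and 12.3% fell. When at least 10 counts were required in every library, 20 of 27 members rose, in a fit of 13520 genes. The share of all genes that rose in that fit is not given here, so this count has no background beside it. Melk, a kinase of dividing cells, and Bub1, a spindle checkpoint kinase, were the members left out by the filter, and both were in the 31.

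**Figure D1:**
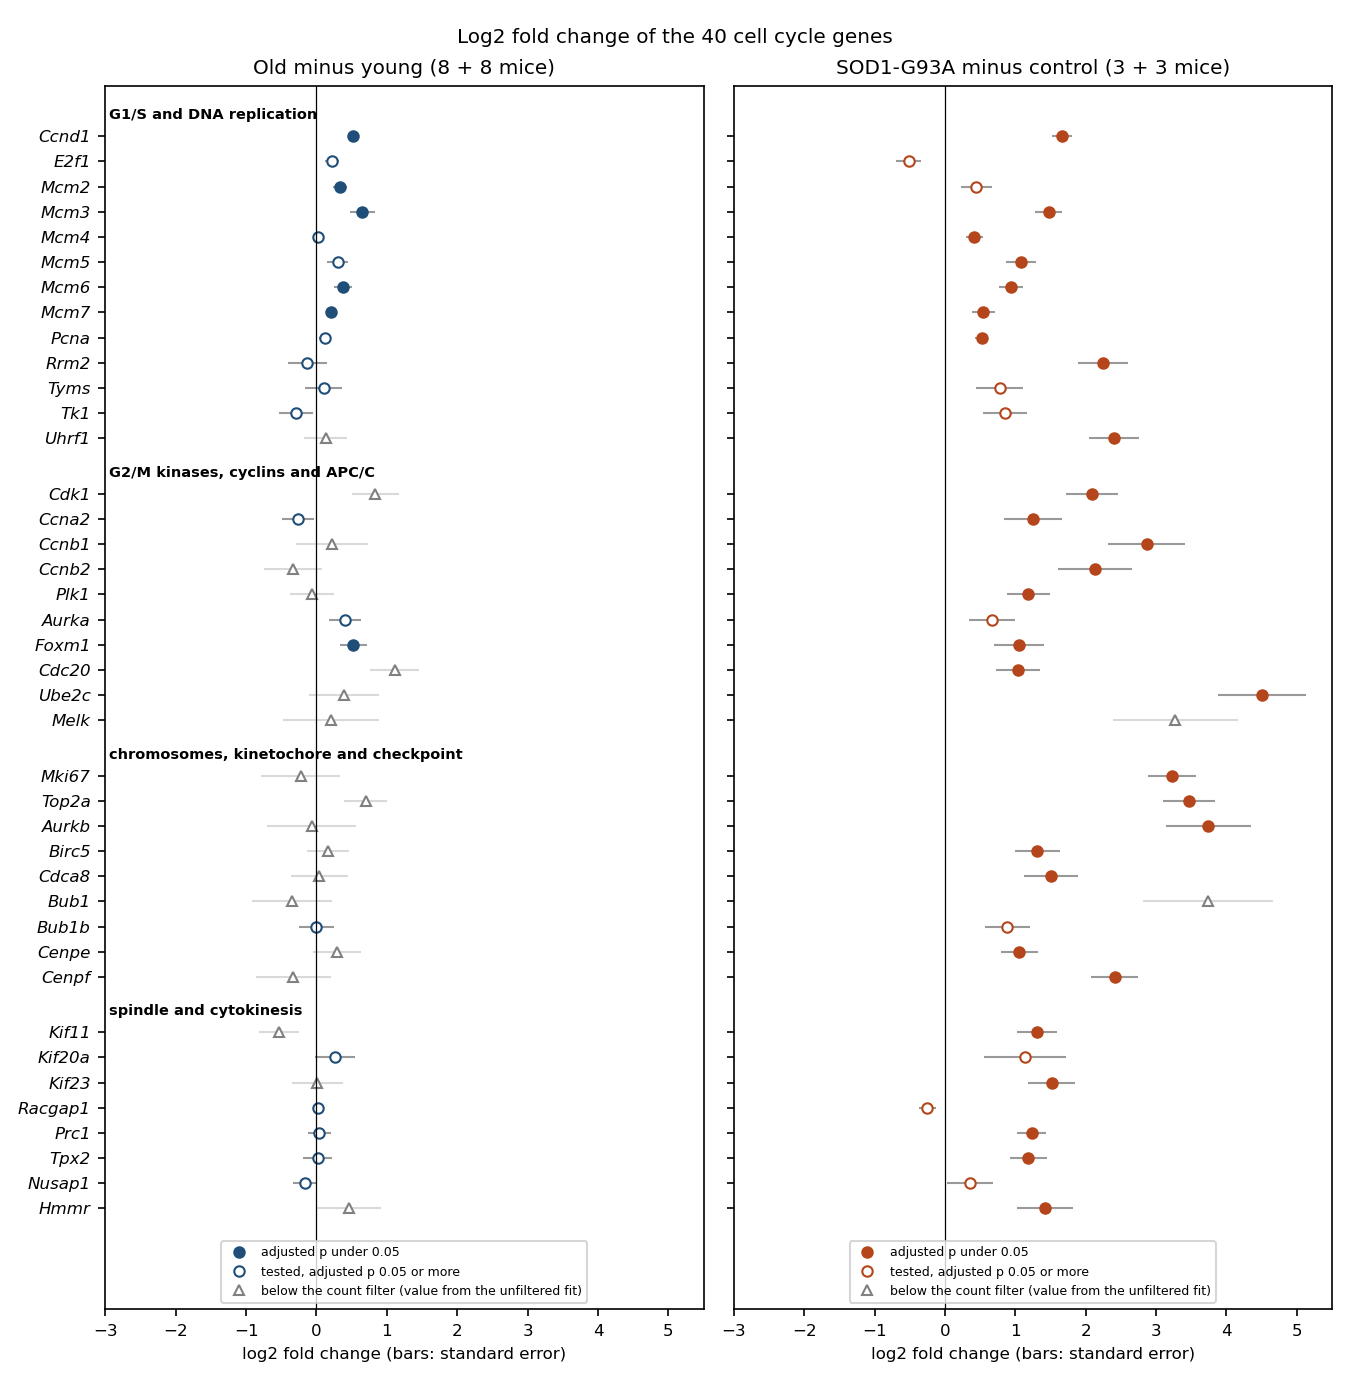
Log2 fold change of each of the 40 members (rows, grouped by role) in old against young mice (left) and SOD1-G93A against control mice (right), with standard errors as bars. Filled circles passed an adjusted p under 0.05, open circles were tested and did not, and grey triangles were below the count filter and are taken from the fit without it; 29 filled circles stand on the right, all above 0, and 6 on the left.

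With 3 mice a group, single libraries weighed on the calls. Of the 29 members that rose, 22 were still called without control library 1, 19 without control library 2, 22 without control library 3, 25 without SOD1-G93A library 1, 28 without SOD1-G93A library 2 and 17 without SOD1-G93A library 3. Leaving out a mouse also makes a group smaller, and the shares of all genes called in these fits are not given here. The members that lost the call in at least 1 of these 6 fits were Mcm4, Mcm7, Ccna2, Ccnb2, Plk1, Foxm1, Cdc20, Birc5, Cdca8, Cenpe, Kif23, Tpx2 and Hmmr. Their largest adjusted p lay between 0.0526 for Tpx2 and 0.199 for Foxm1, and every one kept a log2 fold change above 0 in all 6 fits. Library numbers follow the order of the table and are not the replicate numbers of the labels.

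Among the G1/S and replication members, 9 of 13 rose in SOD1-G93A mice. Ccnd1 (cyclin D1, chr7:144929931-144939925, GRCm38) was at 57.2, 45.4 and 45.9 CPM in the control libraries and at 159, 129.7 and 179.7 CPM in the SOD1-G93A libraries. Each SOD1-G93A mouse stood far above each control mouse, with a log2 fold change of 1.66 (SE 0.142, adjusted p = 0.000176). Exons of Ccnd1 overlap those of LTO1 on the other strand, and whether the counting used strand is not given in the sources used here.

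The MCM helicase, which unwinds DNA at replication forks, has 6 subunits, and 5 of them rose. Mcm3 was at 4.46, 3.70 and 3.15 CPM in control and 11.3, 9.77 and 10.3 CPM in SOD1-G93A libraries (log2 fold change 1.47, SE 0.192, adjusted p = 0.00101). Mcm5 was at 3.32, 2.53 and 3.61 CPM against 6.61, 6.85 and 6.62 CPM (log2 fold change 1.08, SE 0.213, adjusted p = 0.00632). The SOD1-G93A mice were tightly grouped for both subunits, and the groups were well apart. Mcm6 rose by a log2 fold change of 0.94 (adjusted p = 0.00484), Mcm7 by 0.54 (0.0304) and Mcm4 by 0.42 (0.0306). Mcm2 was at 7.28 ± 2.06 CPM in control and 9.91 ± 0.893 CPM in SOD1-G93A mice (SD, n = 3), a log2 fold change of 0.45 with an adjusted p of 0.152. All 3 SOD1-G93A libraries were above all 3 control libraries for each of the 6 subunits, which held for 25.7% of all genes tested. For Mcm2 the gap was small, from 9.11 CPM in the highest control to 9.24 CPM in the lowest SOD1-G93A library. Exons of Mcm7 overlap those of Cops6 and Ap4m1 on the other strand.

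Pcna, the sliding clamp of the replicative polymerases, was at 41.5, 41.5 and 46.4 CPM in control and 63.4, 56.5 and 65.7 CPM in SOD1-G93A libraries. The groups did not overlap, and the log2 fold change was 0.52 (SE 0.0954, adjusted p = 0.00477). Named pseudogenes of Pcna exist in the annotation, and reads could be split with them. Rrm2, the small subunit of ribonucleotide reductase, was at 1.52, 1.85 and 1.77 CPM against 5.17, 7.15 and 12.3 CPM (log2 fold change 2.25, SE 0.350, adjusted p = 0.00238). Uhrf1, which helps to copy DNA methylation onto new strands, was at 1.33, 1.09 and 0.845 CPM against 4.07, 5.04 and 8.24 CPM (log2 fold change 2.41, SE 0.355, adjusted p = 0.00181). For Rrm2 and Uhrf1 the SOD1-G93A mice differed widely among themselves, and library 3 was the highest.

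The thymidine enzymes did not pass the test in SOD1-G93A mice. Tk1 was at 2.61 ± 1.09 CPM in control and 4.78 ± 0.477 CPM in SOD1-G93A mice (log2 fold change 0.86, adjusted p = 0.0605), and Tyms at 2.02 ± 0.731 and 3.48 ± 0.814 CPM (0.78, adjusted p = 0.0993). E2f1, a transcription factor of replication genes, was at 11.9, 11.1 and 12.5 CPM in control and 6.61, 9.87 and 8.50 CPM in SOD1-G93A libraries. Every SOD1-G93A library was thus below every control library for E2f1, and the log2 fold change of -0.51 (SE 0.177) had an adjusted p of 0.0524. E2f1 and Racgap1 were the 2 members with a log2 fold change below 0, and also the 2 whose SOD1-G93A libraries all lay below the control libraries (24.7% of all genes tested did). Members whose SOD1-G93A libraries all lay above numbered 30 of 38, against 25.7% of all genes tested. That count holds all members that passed the filter through their SOD1-G93A levels, named above, except Kif20a, and so leans towards such members.

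Of the 9 tested regulators of G2 and mitosis, 8 rose, all with a log2 fold change above 1. Cdk1, the mitotic kinase, was at 0.759, 0.674 and 0.999 CPM in control and 3.90, 2.22 and 4.39 CPM in SOD1-G93A libraries (log2 fold change 2.09, SE 0.368, adjusted p = 0.00401). Ccnb1, cyclin B1, was at 0.0949, 0.589 and 0.384 CPM against 2.88, 1.51 and 3.76 CPM (2.87, SE 0.548, adjusted p = 0.00554). Ccnb2, cyclin B2, was at 0.190, 0.421 and 0.768 CPM against 2.03, 1.21 and 3.04 CPM (2.13, SE 0.528, adjusted p = 0.0152). For the kinase and both B cyclins, the lowest SOD1-G93A mouse, library 2, still stood above the highest control mouse. Both B cyclins have named pseudogenes.

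Ccna2, cyclin A2 of S phase and G2, was at 2.75, 2.53 and 3.00 CPM in control and 6.69, 2.82 and 10.2 CPM in SOD1-G93A libraries. Library 2 fell inside the control range, and the call (log2 fold change 1.26, SE 0.410, adjusted p = 0.0427) held without that library and was lost in each of the other 5 fits that left out a library. Foxm1, the transcription factor that drives mitotic genes, was at 2.56, 1.60 and 3.30 CPM against 3.47, 4.83 and 7.25 CPM (1.05, SE 0.355, adjusted p = 0.0486). Plk1, polo-like kinase 1, was at 1.42, 1.01 and 1.08 CPM against 2.54, 3.12 and 2.33 CPM (1.18, SE 0.303, adjusted p = 0.0170). Their groups did not overlap, though for Foxm1 the gap was small. Aurka, the Aurora kinase of spindle poles, did not pass, with 1.78 ± 0.560 CPM in control and 2.80 ± 0.596 CPM in SOD1-G93A mice (log2 fold change 0.67, adjusted p = 0.148).

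The anaphase-promoting complex was represented by Ube2c, its ubiquitin-conjugating enzyme, and Cdc20, its activator. Ube2c (chr2:164769898-164778822) was at 0.190, 0.0842 and 0 CPM in control and 2.29, 1.61 and 2.60 CPM in SOD1-G93A libraries. It was all but silent in control mice, with 3 counts over the 3 libraries, and present in each SOD1-G93A mouse, with 72 counts in all. The ratio of the pooled levels was 25.8, with an exact 95% interval of 8.5 to 128 that covers counting error only (log2 fold change 4.51, SE 0.623, adjusted p = 0.00132). Cdc20 was at 1.23, 1.01 and 1.31 CPM against 1.86, 2.52 and 2.95 CPM (1.04, SE 0.316, adjusted p = 0.0334). Melk, below the filter, had 3 counts over the control libraries and 30 over the SOD1-G93A libraries, a ratio of 10.8 (3.35 to 55.1). Exons of Ube2c overlap those of Tnnc2, and exons of Cdc20 those of Elovl1, on the other strand.

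Among the chromosome and kinetochore members, 7 of 8 tested rose, all with a log2 fold change above 1. Mki67 (Ki-67, the coat of mitotic chromosomes and the usual marker of cycling cells, chr7:135689784-135716361) was at 1.42, 0.926 and 1.08 CPM in control and 11.1, 6.75 and 14.2 CPM in SOD1-G93A libraries. The 3 SOD1-G93A mice were each several times above the highest control mouse, with a log2 fold change of 3.23 (SE 0.338, adjusted p = 0.000344). Top2a (DNA topoisomerase II alpha, which untangles sister chromatids, chr11:98992943-99024189) was at 0.759, 1.68 and 0.615 CPM against 10.1, 9.06 and 14.9 CPM. No control mouse came near the SOD1-G93A range, and the log2 fold change was 3.47 (SE 0.367, adjusted p = 0.000370).

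**Figure D2:**
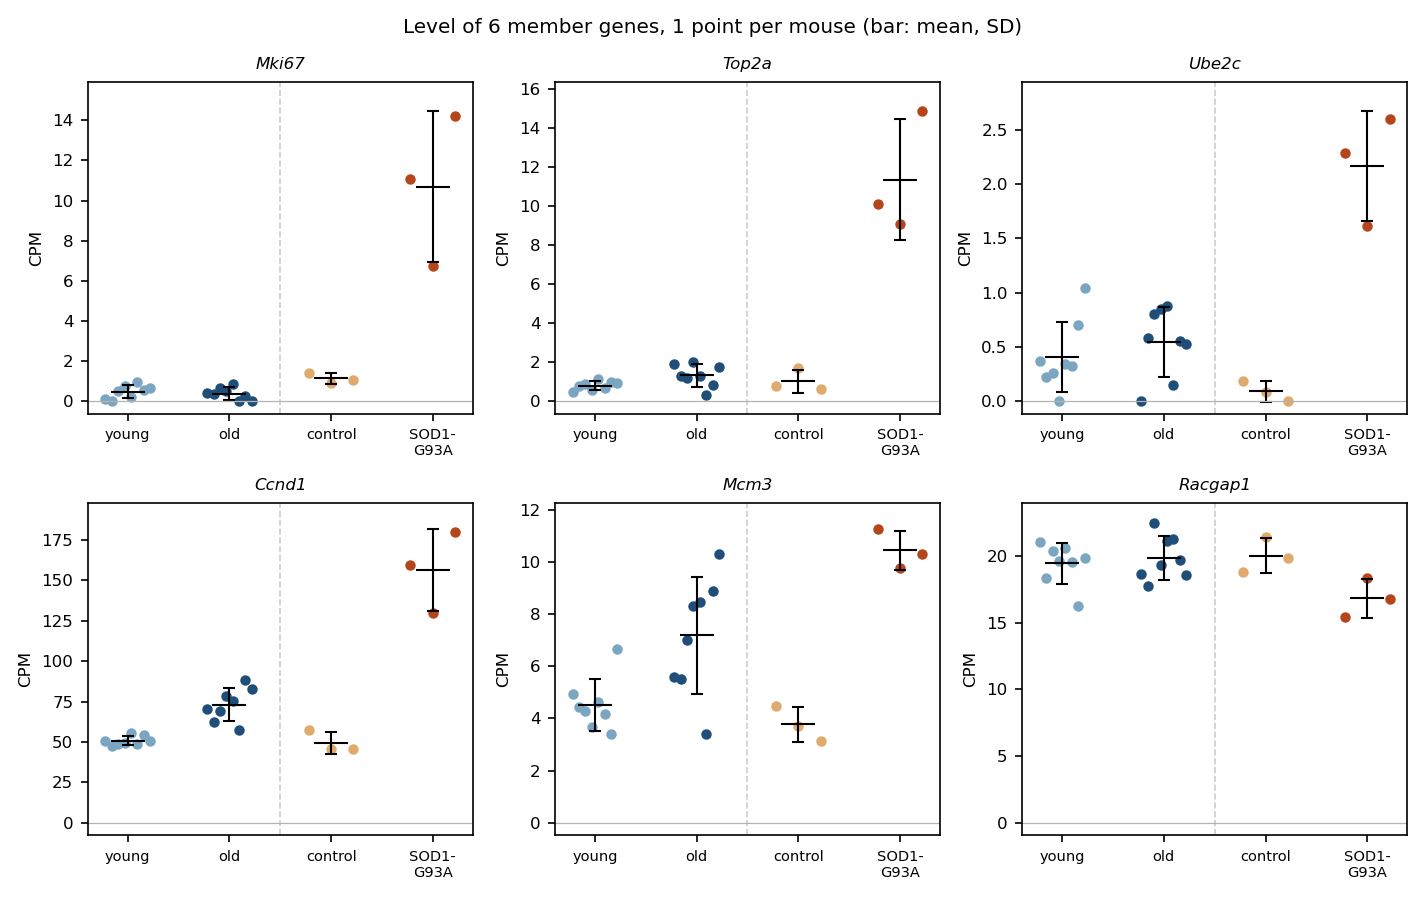
Level in CPM of Mki67, Top2a, Ube2c, Ccnd1, Mcm3 and Racgap1 in each mouse (points), with the mean and SD of each group as black bars; the dashed line parts the aging from the ALS experiment. Mki67 stayed at or under 1.42 CPM in young, old and control mice and was at 6.75 to 14.2 CPM in SOD1-G93A mice, while Ccnd1 stood higher in old than in young and higher in SOD1-G93A than in control mice without overlap, and Racgap1 lay between 15.4 and 22.5 CPM throughout.

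Of the 4 subunits of the chromosomal passenger complex, which corrects chromosome attachment and guides cytokinesis, the 3 that are members rose. The other subunit, Incenp, was at 10.2 ± 1.25 CPM in control and 12.8 ± 1.998 CPM in SOD1-G93A mice and did not pass (log2 fold change 0.33, SE 0.171, adjusted p = 0.169, groups overlapping). Aurkb, its kinase, was at 0.190, 0.0842 and 0.0768 CPM in control and 1.86, 0.906 and 2.15 CPM in SOD1-G93A libraries (log2 fold change 3.74, SE 0.599, adjusted p = 0.00268). With 4 counts over the control libraries against 55, the ratio of pooled levels was 14.8, with an exact 95% interval of 5.47 to 56.3. Birc5, survivin, was at 1.04, 1.43 and 1.69 CPM against 4.15, 2.52 and 3.76 CPM (1.31, SE 0.319, adjusted p = 0.0140). Cdca8, borealin, was at 1.14, 0.421 and 1.08 CPM against 2.46, 2.32 and 2.78 CPM (1.51, SE 0.383, adjusted p = 0.0163). For Aurkb, Birc5 and Cdca8 each SOD1-G93A mouse was above each control mouse.

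At the kinetochore, Cenpf was at 0.759, 0.674 and 0.538 CPM in control and 3.30, 2.82 and 4.39 CPM in SOD1-G93A libraries (log2 fold change 2.41, SE 0.334, adjusted p = 0.00134). Cenpe, a kinetochore motor, was at 1.80, 1.52 and 1.61 CPM against 3.30, 3.22 and 3.76 CPM (1.06, SE 0.256, adjusted p = 0.0138). In CPM the groups were apart for both, with a larger gap for Cenpf. On the FPKM scale the groups overlapped for Cenpe, at 0.18 to 1.2 in control and 0.68 to 0.87 in SOD1-G93A mice. Bub1b, the checkpoint protein BUBR1, was at 2.94, 2.10 and 4.07 CPM against 6.95, 3.73 and 6.18 CPM, with overlapping groups and no call (0.88, adjusted p = 0.0612). Bub1 had 3 counts in 1 control library and none in the other two, against 8, 14 and 20 counts in the SOD1-G93A libraries, a ratio of pooled levels of 15.1 (4.82 to 76.0).

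Of the 8 spindle and cytokinesis members, 5 rose. Prc1, which crosslinks the microtubules of the spindle midzone, was at 4.08, 4.21 and 3.23 CPM in control and 8.64, 7.86 and 10.6 CPM in SOD1-G93A libraries (log2 fold change 1.24, SE 0.206, adjusted p = 0.00327). Kif11, the motor that keeps the spindle bipolar, was at 1.33, 1.60 and 1.84 CPM against 4.32, 3.02 and 4.57 CPM (1.31, SE 0.286, adjusted p = 0.00940). Tpx2, an activator of Aurora A, was at 3.61, 2.27 and 2.46 CPM against 6.27, 5.04 and 7.52 CPM (1.18, SE 0.264, adjusted p = 0.0102). Their groups did not overlap. Hmmr, a spindle protein, was at 1.14, 0.589 and 0.845 CPM against 2.29, 1.51 and 3.04 CPM (1.42, SE 0.396, adjusted p = 0.0235), also without overlap. Exons of Prc1 overlap those of Rccd1 on the other strand.

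Centralspindlin, a complex of the midzone of dividing cells, is made of a motor and a GTPase regulator. Its motor Kif23 was at 1.14, 1.09 and 0.615 CPM in control and 2.46, 2.52 and 3.13 CPM in SOD1-G93A libraries (log2 fold change 1.51, SE 0.337, adjusted p = 0.0101). Its partner Racgap1 (chr15:99620496-99651656) was at 18.8, 21.4 and 19.8 CPM against 15.4, 18.3 and 16.7 CPM. Racgap1 was therefore far more abundant than Kif23 in wild-type cord, also per length, and its SOD1-G93A mice were all a little lower (-0.25, SE 0.121, adjusted p = 0.140). Nusap1, a spindle protein, was at 4.51 ± 1.35 CPM in control and 5.78 ± 2.05 CPM in SOD1-G93A mice (0.36, adjusted p = 0.427), and Kif20a, a motor of cytokinesis, at 1.21 ± 1.02 and 2.64 ± 0.736 CPM (1.14, adjusted p = 0.166), both with overlapping groups.

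In old mice 6 members rose, 5 of them from the G1/S and replication group. Of 40 members, 21 passed the filter in the aging libraries. In edgeR's quasi-likelihood test, adjusted by Benjamini-Hochberg over 13647 genes, 6 of these rose, where 13.5% of all genes tested rose, and none fell, where 12.9% fell. No member passed the adjusted p with a log2 fold change above 1, against 2.18% of all genes tested. At an unadjusted p under 0.05, 7 members were higher and 0 lower (18.9% and 18.7% of all genes tested), and 16 of 21 had a log2 fold change above 0 (49.4% of all genes tested). Without the filter, 4 of 40 members rose (9.97% of 18634 genes), namely Ccnd1, Mcm2, Mcm3 and Cdc20, and none fell (9.53%).

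Ccnd1 had the smallest adjusted p of the members in old mice. It lay between 47.6 and 55.6 CPM in young mice with a median of 49.9, and between 57.4 and 88.2 CPM in old mice with a median of 72.9. Each old mouse was above each young mouse, which held for no other tested member and for 3.66% of all genes tested, and the log2 fold change was 0.53 (SE 0.0710, adjusted p = 6.54e-06). It was called with each of the 16 libraries left out in turn.

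Among the helicase subunits, Mcm3 lay between 3.39 and 6.67 CPM in young mice (median 4.36) and between 3.39 and 10.3 CPM in old mice (median 7.66). In old mice, 5 libraries were above the highest young mouse, and 1 was as low as the lowest young mouse (log2 fold change 0.65, SE 0.182, adjusted p = 0.00999). Mcm2 lay between 7.74 and 9.16 CPM in young (median 7.99) and between 8.10 and 12.6 CPM in old mice (median 11.0), with a log2 fold change of 0.33 (SE 0.0995, adjusted p = 0.0172). Both were called with each library left out in turn. Mcm6 (0.38, SE 0.134, adjusted p = 0.0405) and Mcm7 (0.21, SE 0.0756, adjusted p = 0.0407) rose with overlapping groups, and each lost the call in 12 of 16 fits that left out a library. On the FPKM scale Mcm6 was at 2.64 ± 0.978 in young and 2.85 ± 0.691 in old mice. Mcm7 was at 7.55 ± 1.06 and 7.63 ± 0.786 on that scale, so its rise was hardly seen there. Mcm4 (0.03, adjusted p = 0.821) and Mcm5 (0.30, adjusted p = 0.160) did not pass. Pcna was at 42.4 ± 4.76 CPM in young and 45.8 ± 5.43 CPM in old mice (SD, n = 8), with a log2 fold change of 0.12 and an adjusted p of 0.272.

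Foxm1 was the sixth member that rose, from 1.93 ± 0.454 to 2.80 ± 0.652 CPM (log2 fold change 0.53, SE 0.191, adjusted p = 0.0448), and it too lost the call in 12 of 16 fits. Its exons overlap Tex52 and Gm44596. The count of called members fell to 3 when young library 1, 2, 4 or 5 or old library 1, 3, 4 or 5 was left out, and the other 8 libraries left it at 4 to 6. Racgap1 was at 19.4 ± 1.52 CPM in young and 19.9 ± 1.63 CPM in old mice (0.03, adjusted p = 0.811). Rrm2, Tyms, Tk1, Ccna2, Aurka, Bub1b, Kif20a, Racgap1, Prc1, Tpx2, Nusap1, E2f1, Mcm4, Mcm5 and Pcna were tested and not called, with log2 fold changes from -0.29 for Tk1 to 0.41 for Aurka.

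The mitotic markers were too low in the aging libraries for the test. Mki67 lay between 0 and 0.988 CPM in young mice (median 0.542) and between 0 and 0.875 CPM in old mice (median 0.380), with 29 counts over 8 young and 24 over 8 old libraries. A difference in Mki67 was not detectable at this depth (log2 fold change without the filter -0.23, SE 0.558). Top2a lay between 0.494 and 1.13 CPM in young (median 0.853) and between 0.308 and 2.03 CPM in old mice (median 1.302), with 0.70 (SE 0.310, adjusted p = 0.121 without the filter). Cdk1 lay between 0.452 and 1.56 CPM in young (median 0.724) and between 0.272 and 2.27 CPM in old mice (median 1.73), with 0.84 (SE 0.337, adjusted p = 0.0859 without the filter). For Top2a and Cdk1 most old mice were above the young median in CPM, but the ranges overlapped. On the FPKM scale Top2a was at 0.519 ± 0.350 in young and 0.505 ± 0.316 in old mice, and Cdk1 at 0.919 ± 0.463 and 1.66 ± 0.771.

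Cdc20 passed when the filter was dropped, at 0.674 ± 0.272 CPM in young and 1.47 ± 0.845 CPM in old mice (log2 fold change 1.11, SE 0.350, adjusted p = 0.0255). It lay between 0.339 and 1.18 CPM in young and between 0.525 and 3.13 CPM in old mice, so the groups overlapped. Its reads may be shared with Elovl1, as above. The other members below the filter were Uhrf1, Ccnb1, Ccnb2, Plk1, Ube2c, Melk, Aurkb, Birc5, Cdca8, Bub1, Cenpe, Cenpf, Kif11, Kif23 and Hmmr, and none of them passed without it.

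Whether the members changed differently in the ALS and aging experiments was tested as an interaction in a fit of all 22 libraries, over 14502 genes, with edgeR's quasi-likelihood test. Of the 37 members tested, 17 changed more positively in SOD1-G93A than in old mice (11.6% of all genes tested) and 1 more negatively (14.2%). The filter of this fit ran over all groups together, so a member could pass on its ALS counts alone. Of the 17, Mki67, Top2a, Uhrf1, Ube2c, Kif11, Kif23, Cenpf, Ccnb1 and Ccnb2 were below the filter in the aging libraries. For these the contrast rests mostly on the ALS change and does not show that they were unchanged with age. The difference of log2 fold changes was 3.40 for Mki67 (SE 0.713, adjusted p = 0.000986), 2.72 for Top2a (SE 0.482, adjusted p = 0.000203) and 1.11 for Ccnd1 (SE 0.147, adjusted p = 1.38e-05). E2f1 was the exception, with -0.76 (adjusted p = 0.00263), since it stood a little higher in old than in young mice (0.22, adjusted p = 0.0911) and lower in SOD1-G93A than in control mice. The kit, the sex of the mice and the age of the controls also differ between the experiments and cannot be told apart from this contrast.

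Summed over all 40 members, the level was 215 ± 6.62 CPM in young and 255 ± 20.02 CPM in old mice (SD, n = 8), a ratio of 1.19 with overlapping groups. It was 219 ± 7.26 CPM in control and 453 ± 66.9 CPM in SOD1-G93A mice (n = 3), a ratio of 2.07 without overlap. Ccnd1 alone supplied 23.6% of the members' counts in young, 28.5% in old, 22.6% in control and 34.5% in SOD1-G93A mice. Without Ccnd1 the ratios were 1.11 and 1.75. Because the members were chosen by name with results known, no p is given for these sums.

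The roles contributed unequally to the sums. The 13 G1/S and replication members stood at 163 CPM in young and 200.2 CPM in old mice, and at 162 CPM in control and 329 CPM in SOD1-G93A mice. The 9 chromosome and kinetochore members stood at 8.80 and 9.36 CPM in young and old mice, and at 9.98 and 43.5 CPM in control and SOD1-G93A mice, a ratio of 4.36. The 10 G2/M regulators were at 10.1, 12.8, 11.2 and 31.0 CPM in the same order of groups, and the 8 spindle members at 32.9, 33.0, 35.7 and 49.5 CPM. Racgap1 made up 19.999 of the 35.7 CPM of the spindle sum in control and 16.8 of the 49.5 CPM in SOD1-G93A mice.

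**Figure D3:**
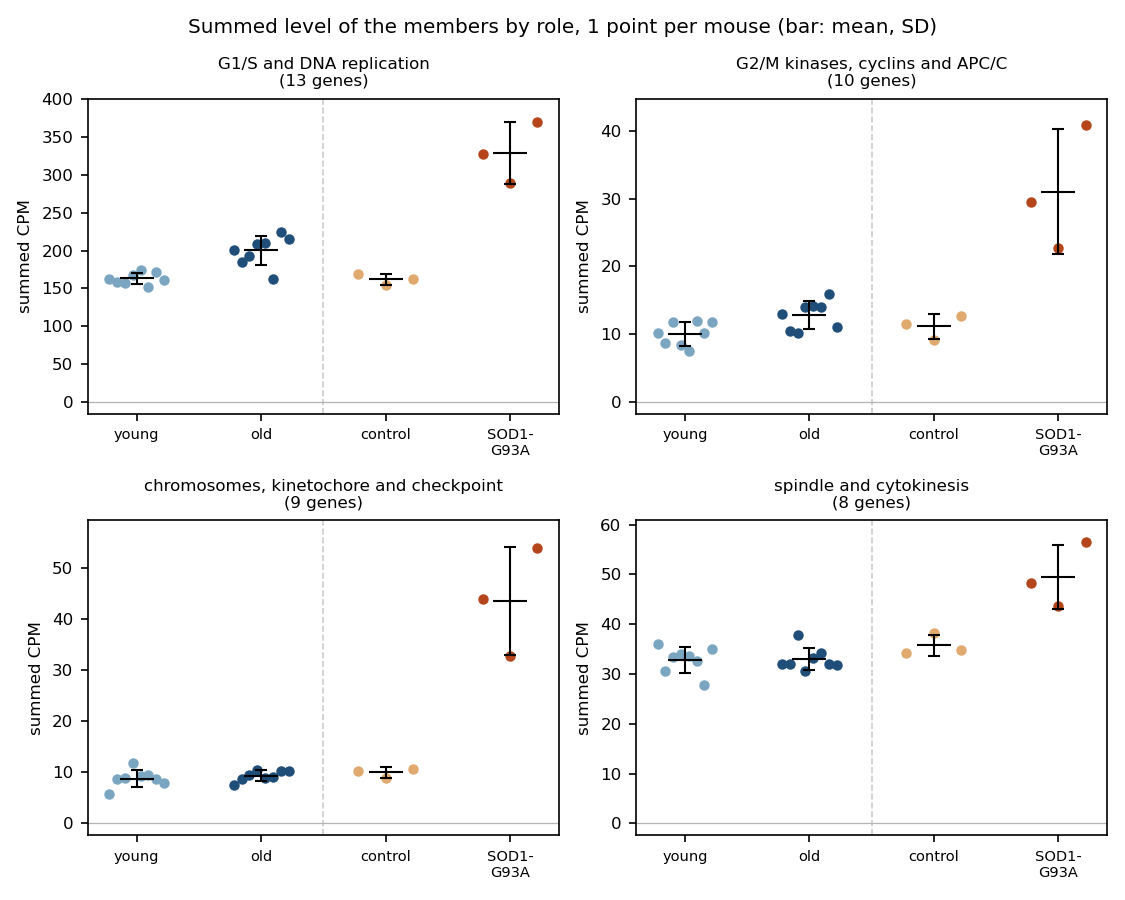
Summed CPM of the members of each role in each mouse (points), with the mean and SD of each group as black bars; the dashed line parts the aging from the ALS experiment. All 4 sums stood higher in SOD1-G93A than in control mice without overlap, from a ratio of 1.39 for spindle and cytokinesis to 4.36 for chromosomes, kinetochore and checkpoint, and in the aging experiment the groups overlapped in all 4.

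The SOD1-G93A mouse that was highest for most members that rose was not the one highest for most genes that rose. Of the 29 members that rose, 24 were highest in library 3, 3 in library 1 and 2 in library 2. Of all 2641 genes that rose, 61.2% were highest in library 1 and 36.4% in library 3. Library 2 was lowest for 22 of the 29 members and for 88.03% of the 2641 genes. The microglial marker sums were 2561, 1432 and 2070.5 CPM in libraries 1, 2 and 3, while the 27 members outside the G1/S group summed to 122, 99.1 and 151 CPM.

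Markers of several cell types, microglia among them, stood higher in SOD1-G93A than in control mice, as the members did. Among the SOD1-G93A mice, library 2 was lowest for the sums of both the microglial markers and the members. Library 1 was highest for the sum of the markers and library 3 for that of the members. The 27 members outside the G1/S group stood at 56.2 to 58.2 CPM in control and 99.1 to 151 CPM in SOD1-G93A mice, where the 10 microglial markers differed by a ratio of 5.23. In the aging experiment the same members stood at 46.5 to 54.5 CPM in young and 51.0 to 58.3 CPM in old mice, a ratio of 1.07 with overlap, where the microglial markers differed by a ratio of 2.22 without overlap. The 6 markers of oligodendrocyte precursors, which also divide in adult cord, summed to 177 CPM in young and 143 CPM in old mice (0 rose and 1 fell), and to 165 CPM in control and 247 CPM in SOD1-G93A mice (3 rose and 0 fell). The 6 astrocyte markers summed to 3250 CPM in young and 4301 CPM in old mice (3 rose and 1 fell, with a median log2 fold change of 0.04), where Gfap alone went from 1843 to 2977 CPM and Gja1 fell (-0.23, adjusted p = 0.00163). They summed to 3067 CPM in control and 11969 CPM in SOD1-G93A mice (5 rose and 0 fell). The 5 ependymal markers summed to 32.1 to 36.1 CPM in control and 38.9 to 53.4 CPM in SOD1-G93A mice (3 of 3 tested rose), and to 35.7 to 46.8 CPM in young and 39.5 to 49.0 CPM in old mice (0 of 3 rose). The 5 Schwann cell markers, of which none passed the test, spread widely, from 4.53 to 111 CPM in SOD1-G93A against 4.23 to 5.31 CPM in control mice, and from 3.70 to 60.5 CPM in old against 3.16 to 12.8 CPM in young mice. The 7 T cell markers were low, and their sum did not overlap between the groups. It was 0.549 to 2.03 CPM in young and 2.16 to 4.26 CPM in old mice. In the ALS experiment it was 0.845 to 1.61 CPM in control and 2.03 to 2.69 CPM in SOD1-G93A mice. Lck was the largest part of this sum in every group, from 0.680 CPM in control to 1.15 CPM in old mice. Each of the 7 genes on its own overlapped in aging. Cd3e was lower in SOD1-G93A (0.361 CPM) than in control mice (0.414 CPM). Neuronal markers summed to 6118 CPM in control and 3084 CPM in SOD1-G93A mice (0 rose and 4 fell). The part of these cell types in the members' change was not tested.

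**Figure D4:**
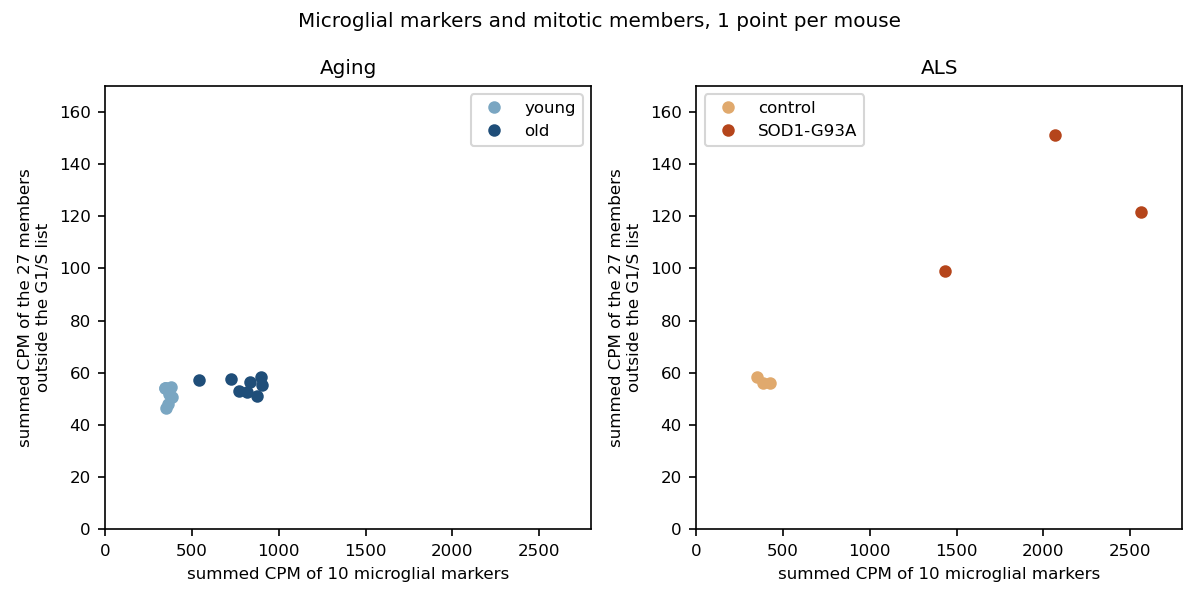
Summed CPM of the 27 members outside the G1/S group (vertical) against the summed CPM of 10 microglial markers (horizontal), 1 point per mouse, for the aging (left) and ALS (right) experiments. Old mice lie to the right of young mice at about the same height (46.5 to 58.3 CPM over both groups), and SOD1-G93A mice lie to the right of and above control mice, at 99.1 to 151 CPM.

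Other genes of the cell cycle, from lists that hold no member, were tested in the same fits. The shares of all genes tested to set beside their counts are 18.4% higher and 15.5% lower in the ALS comparison, and 13.5% higher and 12.9% lower in the aging comparison. Of 40 other mitotic genes, 36 were tested in the ALS comparison, and 15 rose and 3 fell, with a median log2 fold change of 0.54. Spc25 (2.63, SE 0.412, adjusted p = 0.00246), Ndc80 (3.55, SE 0.673, adjusted p = 0.00540) and Nuf2 (1.42, SE 0.289, adjusted p = 0.00727), subunits of the complex that ties kinetochores to microtubules, and Ckap2 (1.79, adjusted p = 0.00858), a spindle protein, rose. Cit, a kinase of cytokinesis that neurons also express, fell from 175 ± 15.5 to 104 ± 23.1 CPM (-0.75, adjusted p = 0.00695). In old mice 21 of these 40 genes were tested, and 2 rose and 2 fell, with a median of -0.01. Bub3 (0.15, adjusted p = 0.0257) and Pttg1 (0.22, adjusted p = 0.0463), which act at the metaphase checkpoint, rose, and Cit (-0.35, adjusted p = 0.000136) and Anln (-0.28, adjusted p = 0.000332), both of the contractile ring, fell.

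Of 30 other replication genes, all were tested in the ALS comparison, and 4 rose and 1 fell (against 18.4% and 15.5% of all genes tested), with a median log2 fold change of 0.36. The 4 are thus no larger a share than that of all genes. Chaf1b, of the chromatin assembly factor (2.62, adjusted p = 0.00440), Cdt1, which loads the MCM helicase (1.28, adjusted p = 0.00643), Timeless (0.98, adjusted p = 0.0112) and Clspn (1.81, adjusted p = 0.0256), which protect forks, rose, and Dut, which removes dUTP, fell (-0.44, adjusted p = 0.0218). In old mice 25 were tested, and 3 rose and 0 fell (against 13.5% and 12.9%), with a median of 0.10, so the share that rose was near that of all genes. They were Lig1, which joins Okazaki fragments (0.23, adjusted p = 0.0208), Pold1, of polymerase delta (0.36, adjusted p = 0.0209), and Rpa2, of the single-strand binding complex (0.42, adjusted p = 0.0498).

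Some further genes of the G1 machinery rose in both experiments. Of 21 genes of G1 cyclins, CDKs, RB and E2F, 20 were tested in the ALS comparison, and 9 rose and 2 fell (against 18.4% and 15.5% of all genes tested), while in old mice 19 were tested, and 5 rose and 0 fell (against 13.5% and 12.9%). Ccnd2, another D cyclin, was at 35.0 ± 1.40 CPM in control and 90.7 ± 11.7 CPM in SOD1-G93A mice (1.37, adjusted p = 0.000134), and at 42.5 ± 3.80 CPM in young and 55.3 ± 4.62 CPM in old mice (0.38, adjusted p = 6.05e-05). Cdk4, a partner kinase of the D cyclins, rose by 0.71 (adjusted p = 0.00335) in SOD1-G93A and by 0.20 (adjusted p = 0.0129) in old mice. Myc, a transcription factor of growth, rose by 1.70 (adjusted p = 0.00371) and 0.86 (adjusted p = 8.46e-05), respectively. Rb1, which encodes the RB brake on E2F, rose in SOD1-G93A mice (0.98, adjusted p = 0.00134) and was not called in old mice (-0.03, adjusted p = 0.838). The 2 genes that fell in SOD1-G93A mice were Ccne1, cyclin E1 (-0.58, adjusted p = 0.0222), and E2f6, a repressor of the E2F family (-0.38, adjusted p = 0.0161).

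A list of 8 brakes of the cycle held CDK inhibitors and Trp53. Of these, 7 were tested in the ALS comparison, and 2 rose and 0 fell, and 5 were tested in old mice, of which 1 rose and 0 fell. Over all genes tested, 18.4% and 13.5% rose, respectively, and with so few genes these counts cannot be told from those shares. Cdkn2c, an inhibitor of CDK4 and CDK6, was at 2.03 ± 0.464 CPM in control and 6.56 ± 1.26 CPM in SOD1-G93A mice (1.70, adjusted p = 0.00226). Trp53, which encodes p53, rose by 0.69 (adjusted p = 0.00490) in SOD1-G93A and by 0.35 (adjusted p = 0.00127) in old mice.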

How the data were processed

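RNA was measured by RNA-seq in whole spinal cords of 22 mice. The authors sequenced on an Illumina HiSeq platform, aligned with STAR to the mm10 genome with an Ensembl annotation, and summarized with RSEM and, per the submitters' notes, SAMtools 1.3. They deposited RSEM expected counts without normalization, and in another table log2 values that they had computed from FPKM plus 1. Whether reads were counted by strand is not given in the sources used here.

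Columns name the group and not the replicate number. Expected counts were rounded, filtered (filterByExpr, minimum count 10, minimum total 15), scaled by TMM and tested with edgeR 4.0.16 in R 4.3.3 (quasi-likelihood, Benjamini-Hochberg over all genes tested), separately per comparison. No pair of libraries in a group was identical, and the chi-square of their counts per degree of freedom was at least 2.57. DESeq2 1.42.0, limma 3.58.1 on the deposited log2 FPKM values, other scalings and filters and each library left out were alternatives. The procedure was tested on simulated data. FPKM levels are 2 to the power of the log2 value, minus 1, and 304 log2 values were above 0 where the count was 0. Positions are from GENCODE M21 (GRCm38). Python 3.11.15, pandas 2.3.3 and matplotlib 3.10.9 were used.

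The members and lists were chosen with earlier results of these data known. Each member is accounted for, those past an adjusted p of 0.05 in either comparison and the 5 with the highest mean CPM are named with values, and library values are given for those with a log2 fold change beyond 1 as well, and for Mki67, Top2a, Cdk1, Pcna and Ccnd1. Of each other list, at most 5 genes with the smallest adjusted p per comparison are named. Incenp, Ccne1, E2f6, Gfap, Gja1, Lck and Cd3e were named after their values were seen. Melk, Bub1, E2f1, Racgap1, Bub1b and Cdc20 in old mice were given in more detail after their values were seen. The MNTg SOD1-G93A mice of the study were not used here.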

Additional observations from a re-analysis of the deposited data

Results flagged for a closer look

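The change of 18 members differed between the ALS and the aging experiments, by the interaction in edgeR's quasi-likelihood test over all 22 libraries. The log2 fold change in SOD1-G93A mice minus that in old mice was 1.11 for Ccnd1, 2.72 for Top2a, 2.35 for Rrm2, 3.40 for Mki67, 2.23 for Uhrf1, 1.17 for Prc1, 4.02 for Ube2c, 1.81 for Kif11, 2.69 for Cenpf, 2.40 for Ccnb2, 1.49 for Ccna2, 1.14 for Tpx2, 2.61 for Ccnb1, 1.46 for Kif23, 0.75 for Mcm5, 0.38 for Pcna and 0.36 for Mcm4. For E2f1 it was -0.76. Of these 18, 11 were still called without SOD1-G93A library 3 and 13 without SOD1-G93A library 1. Mki67, Top2a, Uhrf1, Ube2c, Kif11, Kif23, Cenpf, Ccnb1 and Ccnb2 were below the filter in the aging libraries. For them the difference does not show a lack of change with age. Kit and experiment coincide in this contrast and cannot be told apart.

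In the groups of 8 mice, 4 of 92 sets of values held a mouse far from the others, and chance alone marks about 1 set in 20. Young library 8 held 6.67 CPM of Mcm3 with the next young mouse at 4.94 CPM, a gap of 0.527 of the group's range. Young library 4 held 0.776 CPM of Bub1 with the next at 0.339 CPM (0.563 of the range). Old library 7 held 57.5 CPM of Pcna with the next at 48.0 CPM (0.532 of the range), and old library 8 held 2.80 CPM of Birc5 with the next at 1.48 CPM (0.642 of the range). None of these 4 values was removed.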

How the results depend on the processing

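In old against young mice, 6 members rose, and the log2 FPKM values with limma called 2, while leaving out a library gave 3 to 6. No member rose with a log2 fold change above 1 there, but 1 did with no filter, in 1 fit of all libraries and with DESeq2. In SOD1-G93A against control mice, 29 members rose, and leaving out a library gave 17 to 31, and the 25 with a log2 fold change above 1 became 15 to 27. That last count was 15 with at least 10 counts in every library and 8 with log2 FPKM and limma, a scale that understates low genes. No member fell there, but 2 did in 1 fit of all libraries, and 0 to 1 when a library was left out. For the difference between the comparisons, the 17 members with a more positive change became 10 to 20 and the 1 with a more negative change 1 to 2 when a library was left out. The log2 ratio of the summed level was 0.25 in aging and 1.05 in ALS. It was 0.15 and 0.81 without Ccnd1, 0.11 in aging as a mean over members of log2(CPM + 0.5), 0.23 to 0.28 and 0.94 to 1.15 with a library left out. No member called in either comparison changed sign with a library left out or with DESeq2. Members near 0 in old mice that were not called did when a library was left out, among them Mcm4 (-0.02 to 0.05) and Rrm2 (-0.24 to 0.05). In fits that leave out an ALS library, 2 mice stand against 3. The shares of all genes called under these alternatives are not given here. A lower count of members may therefore only follow fewer calls over all genes.

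No paired analysis was possible because the columns of the tables carry no replicate numbers. At the depth of these libraries, changes of members near 3 counts in both groups, and falls from such a level, cannot be seen. Floors and intervals cover counting error only.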
